A study of Mus musculus with 24 samples.

Results

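Gene expression was compared between C2C12 muscle trained with light at 10 Hz and the same muscle trained at 4 Hz. The comparison used the 12 libraries whose titles named these frequencies, 6 per frequency, out of 24 libraries in the study, and it was described across all genes. C2C12 is a mouse myoblast line that fuses into contractile fibers in culture. All groups carried the genotype ChR2::tdTomato, a blue light-gated ion channel joined to a red fluorescent reporter, so that each light pulse could trigger a twitch. The promoter driving the channel, and whether the line was 1 clone, were not given in the sources used here. Cells were differentiated on fibrin hydrogel in medium with horse serum and IGF-1, and both groups received light for 30 min per day, so the pulse rate was the labelled difference between them. The other 12 libraries, unstimulated control and 1 Hz tissues prepared in the same way, entered the fit to estimate the spread and are given only as background levels. The methods of the study call the libraries of a frequency biological replicates, grown in the wells of well plates, and the labels do not say whether they came from separate cultures of the line, so p-values measure the spread between these libraries, which may be in part technical.

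Muscle fibers twitch singly at low pulse rates and sum their twitches as the rate rises, so calcium stays in the cytosol for longer between contractions. Calcium that leaves the sarcoplasmic reticulum acts on calcineurin and NFAT, on calmodulin-dependent kinases, and on immediate early genes such as Fos and Arc. The endoplasmic reticulum, of which the sarcoplasmic reticulum is a specialised part, folds secreted and membrane proteins with calcium-binding chaperones, and it raises the transcription of those chaperones when folding falls behind.

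The tissue label was checked against marker genes. Levels are in CPM (counts-per-million), of the raw library total for the summed markers and on TMM-scaled library sizes for single genes. All 10 muscle fiber markers were measured, with a summed level of 8760 to 12900 CPM at 10 Hz and 12100 to 18200 CPM at 4 Hz. Of the 10, 5 were called lower at 10 Hz (edgeR adjusted p under 0.05 and a log2 change beyond 0.5), beside 5.64% of all genes tested. Markers of unfused myoblasts summed to 479 to 559 CPM at 10 Hz and 497 to 540 CPM at 4 Hz. Of the 8 that passed the filter on low counts, 1 was called higher and 1 lower. Of other cell types, 0 of 8 endothelial markers passed the filter on low counts, 2 of 8 adipocyte markers passed and 0 were called, and the leukocyte genes Ptprc and Adgre1 were at 0, while 1 of the 2 macrophage markers that passed, Csf1r, was called higher (summed level 74.7 to 103 CPM at 10 Hz and 69.0 to 102 CPM at 4 Hz). Fibroblast markers summed to 235 to 397 CPM at 10 Hz and 256 to 302 CPM at 4 Hz, and 1 of the 5 that passed was called lower. Neuron markers summed to 118 to 266 CPM at 10 Hz and 104 to 111 CPM at 4 Hz. Of the 5 that passed, Nefl and Nefm were called higher and no other was called. Only 3 of the 5 had a positive log2 fold change, and the lowest was -0.34. Snap25 was at 0. In bulk samples, fewer cells of a type and less RNA per cell cannot be told apart.

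The libraries differed in composition along with the pulse rate. Library totals were 8.19 ± 2.40 M counts at 10 Hz and 9.12 ± 1.67 M counts at 4 Hz (SD, n = 6 each, 2-sided exact permutation p = 0.455, and p = 0.532 after Benjamini-Hochberg adjustment over 4 composition measures). Small RNAs that carry no poly(A) tail, a set of 36 genes that includes 7SK, RNase P RNA, and spliceosomal RNAs, took 38.5 to 274 CPM of the raw library total at 10 Hz (median 106) and 19.5 to 51.1 at 4 Hz (median 25.1, exact permutation p = 0.00433, adjusted p = 0.013). Ribosomal RNA took 0.355% to 2.24% of counts at 10 Hz (median 0.957%) and 0.170% to 0.591% at 4 Hz (median 0.254%, exact permutation p = 0.00649, adjusted p = 0.013). Genes of the mitochondrial genome took 3.34 ± 0.882% at 10 Hz and 2.97 ± 1.22% at 4 Hz (SD, n = 6 each, exact permutation p = 0.532). With 6 libraries against 6, the smallest p this test can give is 0.00216.

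The 6 libraries at 10 Hz were not alike in this respect. Libraries 1, 2, and 3 held the most small RNA (178, 274, and 112 CPM), libraries 4 and 5 held 99.6 and 67.9, and library 6, at 38.5, lay within the range at 4 Hz. Per the labels, ribodepletion replaced poly(A) selection for low-input samples, which are not named, so pulse rate and library preparation cannot be told apart here. Unstimulated control libraries held 135 ± 25.2 CPM of the same RNAs and 1 Hz libraries 30.7 ± 20.9 (SD, n = 6 each). The comparisons that follow are therefore given with all 6 libraries at 10 Hz and, where stated, with libraries 4 to 6 alone against the same 6 libraries at 4 Hz.

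**Figure D1:**
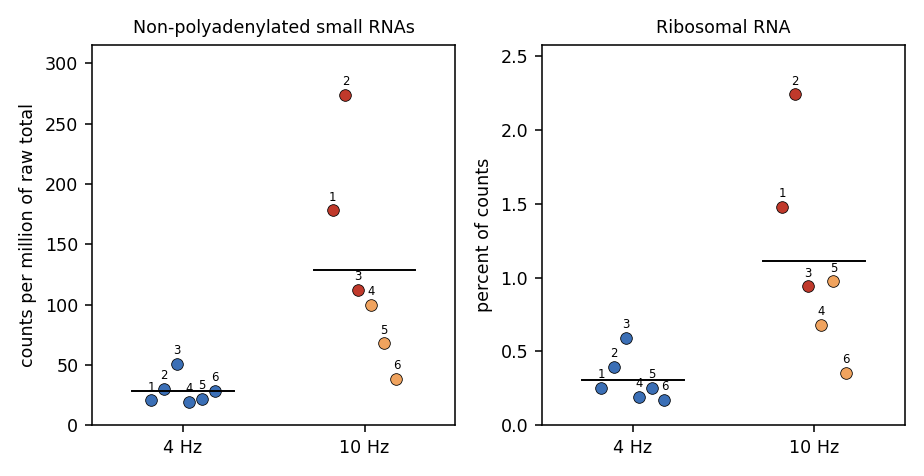
Share of non-polyadenylated small RNAs (CPM of the raw total) and of ribosomal RNA (percent of counts) in each of the 6 libraries at 4 Hz (blue) and at 10 Hz (red for libraries 1 to 3, orange for libraries 4 to 6), numbered by replicate, with the mean as a line. Small RNA in 10 Hz libraries 1 to 5 lies above all 6 libraries at 4 Hz, and library 6 lies among them.

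Of 13318 genes tested, 709 were called higher and 751 lower at 10 Hz than at 4 Hz, 1460 or 11% in all (edgeR quasi-likelihood test; a call needed a Benjamini-Hochberg adjusted p under 0.05 and a log2 fold change beyond 0.5 in size). These are 5.32% of genes higher and 5.64% lower, the shares beside which the counts of each gene list below are to be read. The change passed 2-fold in 273 of the higher and 175 of the lower genes. The 6 libraries at 10 Hz did not overlap with the 6 at 4 Hz for 826 genes, 6.20% of those tested, among them 190 of the higher and 278 of the lower genes. Over all genes the median log2 fold change was 0.01. The balance between directions depended on scaling: with library totals in place of TMM, 933 genes were higher and 591 lower (61.2% of calls higher, against 48.6%), and limma on log2(TPM + 1) gave 645 higher and 389 lower (62.4% higher).

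Most of these calls rested on libraries 1 to 3 at 10 Hz. Libraries 4 to 6 alone gave 49 genes higher and 114 lower than 4 Hz, which are 0.357% and 0.829% of 13744 genes then tested, and of which 44 and 110 were among the genes called with all libraries, while libraries 1 to 3 alone, the same number of libraries, gave 1148 higher and 1140 lower. When the log2 share of small RNA was added to the fit as a covariate, edgeR called 0 genes, with 940 genes at an unadjusted p under 0.05 against 4741 without the covariate, and limma also called 0, with 909 at an unadjusted p under 0.05. Because the share of small RNA itself moved with the pulse rate, that fit cannot tell the 2 terms apart.

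**Figure D2:**
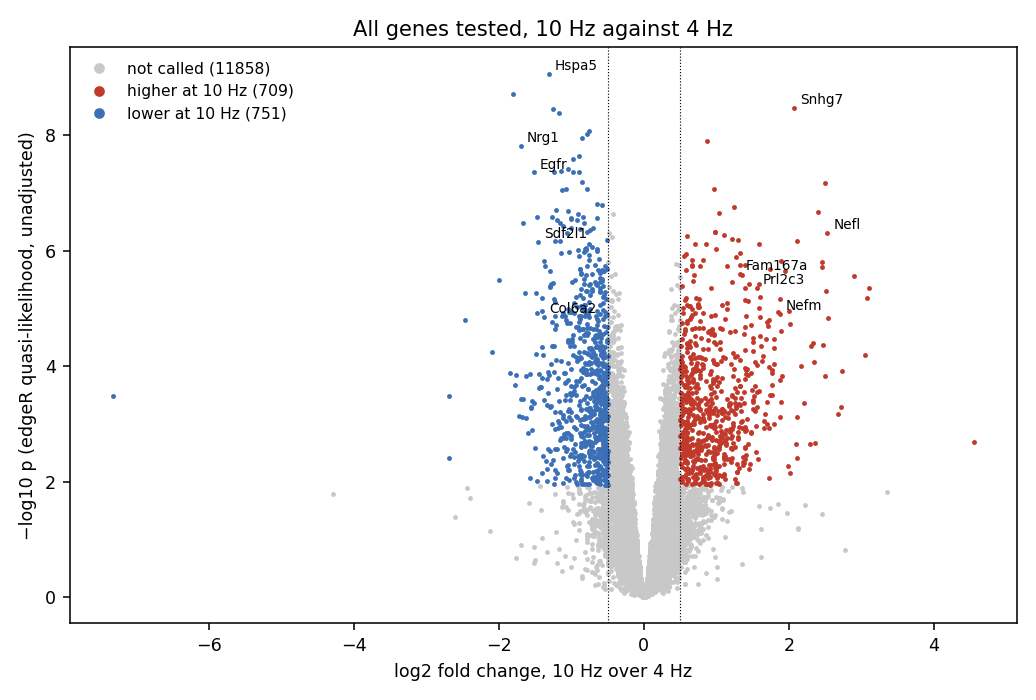
Each point is 1 of the 13318 genes tested, with its log2 fold change (10 Hz over 4 Hz) on the horizontal axis and -log10 of the unadjusted edgeR p on the vertical axis; dotted lines mark a log2 fold change of 0.5 in each direction. The 709 genes called higher are red, the 751 called lower are blue, and the 5 leading genes each way are named, with Hspa5 and Snhg7 at the top of their sides.

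Genes of protein folding in the endoplasmic reticulum were lower at 10 Hz both with all libraries and with libraries 4 to 6 alone. Of 20 tested genes of this group, 11 were called lower (55.0%, beside 5.64% of all genes) and 0 higher, with a median log2 fold change of -0.60. Of the 20, 13 had no overlap between the groups, which held for 6.20% of all genes. With libraries 4 to 6 alone the count was again 11 lower and 0 higher, with a median of -0.62, so that these 11 were among the 114 genes (0.829% of all) then called lower. Hspa5 (BiP, the main chaperone of the endoplasmic reticulum) was measured at 1560 to 2260 CPM at 10 Hz (median 1950) and 3560 to 5680 CPM at 4 Hz (median 4950). It fell by 1.31 ± 0.14 on the log2 scale (SE, edgeR adjusted p = 1.1e-05), and by 1.20 with libraries 4 to 6 alone (adjusted p = 0.00355). Each library at 10 Hz was below every library at 4 Hz, and library 6 at 10 Hz was the highest of its group.

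Calr (calreticulin, a calcium-binding chaperone) lay at 1650 to 1830 CPM at 10 Hz and 2860 to 4860 CPM at 4 Hz, and its log2 fold change was -1.17 (edgeR adjusted p = 1.1e-05; -1.16 with libraries 4 to 6 alone, adjusted p = 0.00444). Hsp90b1 (GRP94) lay at 580 to 883 CPM against 1110 to 1740 CPM, a log2 fold change of -0.98 (edgeR adjusted p = 3.3e-05). Neither gene had a library at 10 Hz inside the range at 4 Hz. The secreted cofactor Manf was at 81.6 to 116 CPM at 10 Hz (median 103) and 166 to 272 CPM at 4 Hz (median 266), and fell by 1.24 ± 0.16 (SE, edgeR adjusted p = 3.3e-05). Sdf2l1, a subunit of chaperone complexes in the same compartment, was at 19.2 to 28.5 CPM (median 26.2) against 39.6 to 98.1 CPM (median 70.8), a log2 difference of -1.46 ± 0.23 (SE, edgeR adjusted p = 0.000143). With libraries 4 to 6 alone the changes of Manf and Sdf2l1 were -1.18 and -1.51 (adjusted p = 0.00929 and 0.0189).

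The protein disulfide isomerases Pdia3, Pdia4, and Pdia6 had log2 fold changes of -0.60, -0.85, and -0.85, and all 3 were called lower. Herpud1, which serves degradation of misfolded proteins, was at 150 to 266 CPM at 10 Hz and 361 to 552 CPM at 4 Hz (log2 fold change -1.04, edgeR adjusted p = 9.4e-05). Xbp1, a transcription factor that acts when unfolded proteins accumulate, and the chaperone Hyou1 had log2 fold changes of -0.64 and -0.61 (edgeR adjusted p = 0.000169 and 0.000306). Other members were not called. Dnajb9, Edem1, and Selenos had log2 fold changes of 0.27, 0.06, and 0.06 (adjusted p = 0.231, 0.661, and 0.627).

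Promoters of these genes were read from GRCm39, from 250 bases before to 50 after the start of the canonical transcript, and searched on both strands for the endoplasmic reticulum stress element, spelled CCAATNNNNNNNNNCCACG, a motif that was chosen after the values were seen. It stood in 8 of the 20 promoters (40.0%) and in 15 of 13293 promoters of tested genes (0.113%). The list was written from general knowledge and may hold genes chosen for their known part in this response. The higher share in the list is therefore no independent evidence. Of the 8 genes, Hspa5, Hsp90b1, Calr, and Pdia6 were called lower, and Canx, Dnajc3, Creld2, and Syvn1, with log2 fold changes of -0.29, -0.41, -0.33, and -0.16, were not. The stretches around the element are shown so that the called and uncalled genes can be compared, on the strand of the gene, with the element in capitals in either orientation.
Hspa5, chr2:34662025-34662067, plus strand, 79 to 37 bases before the start: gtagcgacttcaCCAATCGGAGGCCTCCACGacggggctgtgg
Hsp90b1, chr10:86541385-86541532, minus strand, 154 to 7 bases before the start, with 2 elements: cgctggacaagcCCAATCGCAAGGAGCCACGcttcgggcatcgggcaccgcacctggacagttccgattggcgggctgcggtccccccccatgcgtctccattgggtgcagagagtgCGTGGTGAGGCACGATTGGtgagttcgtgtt
Calr, chr8:85573692-85573734, minus strand, 67 to 25 bases before the start: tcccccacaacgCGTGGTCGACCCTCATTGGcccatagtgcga
Pdia6, chr12:17316480-17316522, plus strand, 53 to 11 bases before the start: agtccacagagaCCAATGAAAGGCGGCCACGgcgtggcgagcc
Canx, chr11:50216615-50216657, minus strand, 128 to 86 bases before the start: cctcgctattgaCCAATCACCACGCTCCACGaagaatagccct
Dnajc3, chr14:119175227-119175269, plus strand, 118 to 76 bases before the start: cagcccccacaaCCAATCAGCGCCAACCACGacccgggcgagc
Creld2, chr15:88703711-88703753, plus strand, 102 to 60 bases before the start: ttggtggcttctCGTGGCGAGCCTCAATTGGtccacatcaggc
Syvn1, chr19:6096550-6096592, plus strand, 56 to 14 bases before the start: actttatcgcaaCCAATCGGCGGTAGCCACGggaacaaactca

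The other 12 promoters of the group included those of 7 genes called lower. Sdf2l1, Manf, Herpud1, and Xbp1, which were called lower, had no exact match in this window, which says only that these letters were absent from it.

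Targets of ATF4, the transcription factor of the integrated stress response, were lower beside the chaperones. Of 20 tested, 8 were called lower (40.0%, beside 5.64% of all genes) and 0 higher, with a median log2 fold change of -0.49. With libraries 4 to 6 alone 3 were lower and the median was -0.40. Phgdh, the entry enzyme of serine synthesis, was at 131 to 183 CPM at 10 Hz (median 159) and 201 to 417 CPM at 4 Hz (median 272), with no overlap (log2 fold change -0.88 ± 0.15, SE, edgeR adjusted p = 0.000254, and -0.84 with libraries 4 to 6, adjusted p = 0.0268). Mthfd2, of mitochondrial folate metabolism, was at 96.4 to 117 CPM against 145 to 217 CPM (log2 fold change -0.72, edgeR adjusted p = 0.000164). The lipoprotein receptor gene Vldlr, at 38.9 to 60.6 CPM against 70.0 to 103 CPM, fell by 0.83 ± 0.12 (SE, edgeR adjusted p = 0.000102). Trib3 and Ddit3, both induced by stress of the endoplasmic reticulum, overlapped between the groups and had log2 fold changes of -0.80 and -0.58 (edgeR adjusted p = 0.00478 and 0.00529), and of -0.59 and -0.61 with libraries 4 to 6 (adjusted p = 0.171 and 0.081). Outside this list, Ass1, the argininosuccinate synthase of arginine metabolism, was among the 10 leading lower genes, at 13.2 to 19.3 CPM at 10 Hz (median 15.8) and 29.9 to 48.1 CPM at 4 Hz (median 39). Its log2 fold change was -1.25 ± 0.15 (SE, edgeR adjusted p = 1.1e-05), and -1.18 with libraries 4 to 6 alone (adjusted p = 0.00444).

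**Figure D3:**
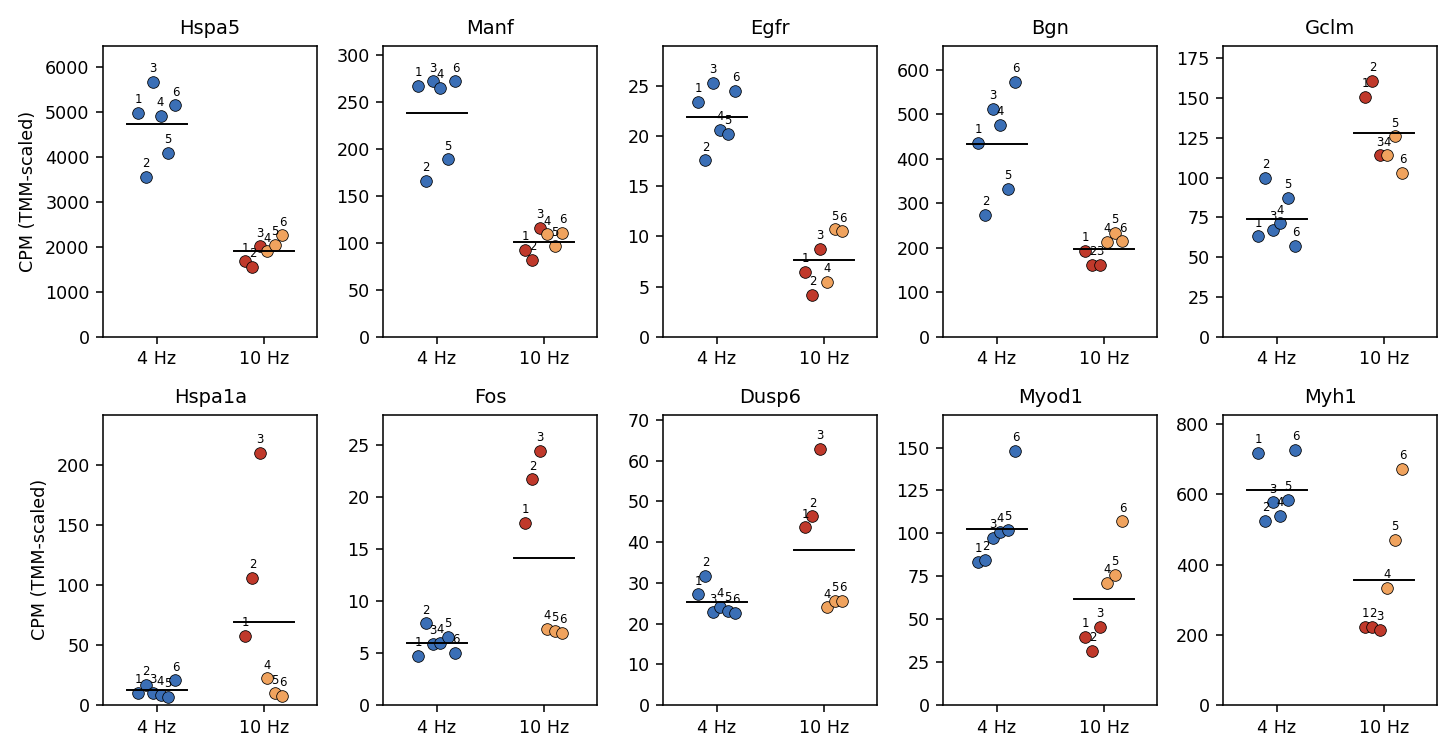
Level of 10 genes in CPM (TMM-scaled) in each library at 4 Hz (blue) and 10 Hz (red for libraries 1 to 3, orange for libraries 4 to 6), numbered by replicate, with the mean as a line. In the upper row all 6 libraries at 10 Hz lie on the same side of the 6 at 4 Hz, whereas in the lower row libraries 1 to 3 at 10 Hz stand apart and at least 1 of libraries 4 to 6 lies among those at 4 Hz.

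The growth factor Nrg1 (neuregulin 1, which motor neurons and muscle use to signal through ErbB receptors) had the largest fall among the leading genes. It was at 4.07 to 8.96 CPM at 10 Hz (median 4.76) and 11.3 to 22.3 CPM at 4 Hz (median 18), a log2 difference of -1.70 ± 0.21 (SE, edgeR adjusted p = 2.05e-05). The EGF receptor gene Egfr was at 4.15 to 10.7 CPM (median 7.61) against 17.6 to 25.3 CPM (median 22), a log2 difference of -1.52 ± 0.20 (SE, edgeR adjusted p = 3.3e-05). No library at 10 Hz reached the range at 4 Hz for either gene, and with libraries 4 to 6 alone the changes were -1.40 and -1.31 (adjusted p = 0.012 and 0.0103). Of the other 7 genes of this family tested, the ligand gene Btc was called higher, at 4.23 to 14.6 CPM against 1.81 to 3.69 CPM (log2 fold change 1.47, edgeR adjusted p = 0.000838, and 0.80 with libraries 4 to 6, adjusted p = 0.102), and it is named here after its values were seen. The receptor genes Erbb2 and Erbb3 had log2 fold changes of 0.04 and 0.17 (adjusted p = 0.848 and 0.306).

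Genes of the extracellular matrix had calls in both directions, more of them lower. Of 15 collagen genes 6 were called lower (40.0%, beside 5.64% of all genes) and 0 higher. The median log2 fold change was -0.48, and -0.41 with libraries 4 to 6, which called 1. Col6a2, a chain of the collagen VI network around fibers, was at 10.9 to 21.1 CPM at 10 Hz (median 17.3) and 25.5 to 77.7 CPM at 4 Hz (median 40.6), a log2 difference of -1.38 ± 0.26 (SE, edgeR adjusted p = 0.000677). Its partner chain Col6a1 had a log2 difference of -1.41 ± 0.26 (SE, edgeR adjusted p = 0.000616), while Col6a3 had -0.12 (adjusted p = 0.595). With libraries 4 to 6 alone, Col6a2 and Col6a1 were at -1.15 and -1.05 and no longer called (adjusted p = 0.07 and 0.0755). Col18a1, of basement membranes, was called both with all libraries and with libraries 4 to 6 (-0.88 and -0.86).

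Of 27 other matrix genes 5 were lower (18.5%) and 2 higher (7.41%), with a median of -0.14, beside 5.64% and 5.32% of all genes. Bgn (biglycan, a small proteoglycan) was at 162 to 234 CPM (median 203) against 273 to 573 CPM (median 456), with a log2 difference of -1.14 ± 0.15 (SE, edgeR adjusted p = 3.3e-05) and of -0.98 with libraries 4 to 6 (adjusted p = 0.0131). The protease gene Mmp2 fell by 0.95 ± 0.16 (SE, edgeR adjusted p = 0.000316) without overlap, and libraries 4 to 6 alone gave -0.73 (adjusted p = 0.0557). Thbs2 (thrombospondin 2) and Loxl2 (a collagen crosslinking enzyme) were the 2 called higher, at log2 fold changes of 1.02 and 0.65 (edgeR adjusted p = 0.00687 and 0.00192). Their libraries overlapped, and without libraries 1 to 3 the changes were 0.33 and 0.42 (adjusted p = 0.54 and 0.153). Has1, a hyaluronan synthase, was among the 10 leading higher genes at 14.6 to 29.0 CPM against 7.07 to 13.9 CPM (log2 fold change 1.05, edgeR adjusted p = 0.00151, and 0.61 with libraries 4 to 6, adjusted p = 0.185).

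Genes of the contractile apparatus were lower at 10 Hz in nearly every group of the apparatus. Of 11 fast sarcomere genes 8 were called lower, of 10 slow sarcomere genes 7, of 19 genes of giant and Z-disc proteins 9, and of 21 genes of excitation-contraction coupling 11, and 0 members of the 4 groups were called higher. The shares called lower were 72.7%, 70.0%, 47.4%, and 52.4%, beside 5.64% of all genes. The medians were -0.59, -0.63, -0.38, and -0.54 on the log2 scale, beside 0.01 over all genes. With libraries 4 to 6 alone the medians were -0.50, -0.49, -0.22, and -0.30, and 4, 2, 0, and 0 genes were called lower.

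Among fast isoforms, Casq1 (the calcium buffer of the sarcoplasmic reticulum) was at 73.0 to 128 CPM at 10 Hz (median 105) and 147 to 250 CPM at 4 Hz (median 172). The log2 fold change was -0.89 ± 0.14 (SE, edgeR adjusted p = 0.000196), and -0.83 with libraries 4 to 6 (adjusted p = 0.0195). The troponin genes Tnni2 and Tnnt3 fell by 0.76 ± 0.13 and 0.58 ± 0.10 (SE, edgeR adjusted p = 0.000347 and 0.000313). Neither had overlapping libraries, and both stayed called with libraries 4 to 6 (-0.68 and -0.52). Atp2a1, the calcium pump SERCA1, was at 340 to 677 CPM (median 478) against 646 to 1070 CPM (median 791), where library 6 at 10 Hz alone entered the range at 4 Hz (log2 fold change -0.76 ± 0.14, SE, edgeR adjusted p = 0.000615, and -0.61 with libraries 4 to 6, adjusted p = 0.058).

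Among slow isoforms, the regulatory light chain gene Myl2 was at 6.88 to 17.1 CPM (median 13.9) against 14.7 to 46.4 CPM (median 34.1), a log2 difference of -1.29 ± 0.22 (SE, edgeR adjusted p = 0.00036), and of -1.11 with libraries 4 to 6 (adjusted p = 0.0358). Actn2 and Mybpc1, which anchor thin filaments and bind myosin, fell by 0.88 ± 0.17 and 0.80 ± 0.14 (SE, edgeR adjusted p = 0.000727 and 0.000398), and by 0.62 and 0.64 with libraries 4 to 6 (adjusted p = 0.0531 and 0.0366). The small Z-disc protein gene Tcap fell by 1.22 ± 0.23 (SE, edgeR adjusted p = 0.000677), with its lowest value, 4.28 CPM, in library 3 at 10 Hz, and was at -0.98 with libraries 4 to 6 (adjusted p = 0.0501). Titin (Ttn) and filamin C (Flnc) had log2 fold changes of 0.08 and -0.07 (adjusted p = 0.611 and 0.697). Of the coupling genes, Trdn (triadin) was at 29.9 to 54.3 CPM against 50.8 to 94.1 CPM (log2 fold change -0.94 ± 0.18, SE, edgeR adjusted p = 0.000893, and -0.73 with libraries 4 to 6, adjusted p = 0.084). Stim1, the calcium sensor of store-operated entry, was at 40.7 to 76.1 CPM (median 57.5) against 84.4 to 106 CPM (median 93.1), with no overlap (log2 fold change -0.70 ± 0.11, SE, edgeR adjusted p = 0.000117), and libraries 4 to 6 gave -0.49 (adjusted p = 0.0192), just under the fold limit. Among 11 genes of the acetylcholine receptor and the synapse 2 were called lower (18.2%) and 0 higher (median -0.41). Of 8 genes of myoblast fusion 1 was higher and 1 lower (12.5% each, median -0.09), beside 5.32% and 5.64% of all genes. The myogenic E-box CAGCTG stood in 4 of 11 promoters of fast and 2 of 10 of slow sarcomere genes (36.4% and 20.0%, beside 14.1% of all promoters), and in 0 of 6 of myosin heavy chains.

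The 6 myosin heavy chains share 1 function, the motor of the thick filament, and differ by fiber type and stage. On 4 of them, libraries 1 to 3 at 10 Hz held the lowest values of all 12 libraries. Myh1 (fast type 2X) was at 223, 223, and 215 CPM in libraries 1 to 3 and 334, 471, and 673 CPM in libraries 4 to 6, against 524 to 726 CPM at 4 Hz, and only library 6 was within that range. The log2 fold change was -0.78 ± 0.21 (SE, edgeR adjusted p = 0.0107), but -0.31 with libraries 4 to 6 alone (adjusted p = 0.412). Myh2 (fast type 2A) was at 22.9 to 47.4 CPM (median 31.8) against 49.3 to 104 CPM (median 70.6), with no overlap, and remained called with libraries 4 to 6 (-1.14 ± 0.18, SE, edgeR adjusted p = 0.000184, and -0.86, adjusted p = 0.0403). Myh7 (slow), Myh8 (perinatal), and Myh4 (fast type 2B) fell by 0.92, 0.79, and 0.73 (edgeR adjusted p = 0.002, 0.00264, and 0.00746), and none of the 3 was called with libraries 4 to 6. Myh3 (embryonic) had a log2 difference of -0.43 ± 0.19 (SE, edgeR adjusted p = 0.0994), which became -0.64 (adjusted p = 0.00899) without library 6 at 10 Hz.

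As a share of the pool of 6 heavy chains in TPM (transcripts-per-million, which corrects for length), the 4 adult chains made up 41.9% to 46.7% at 10 Hz (median 44.7%) and 45.0% to 51.4% at 4 Hz (median 47.3%). The difference in mean share, 10 Hz less 4 Hz, was -3.37 percentage points (44.5 ± 1.70% against 47.8 ± 2.31%, SD, n = 6 each, 2-sided exact permutation p = 0.0152). Embryonic Myh3 was 38.2 ± 2.05% of the pool at 10 Hz and 32.9 ± 2.60% at 4 Hz, and slow Myh7 was 17.9 ± 4.80% and 17.4 ± 3.15% (SD, n = 6 each). Libraries 4 to 6 alone gave a difference of -3.4 points (exact permutation p = 0.0952). The share was lowest, 41.9%, in library 6 at 10 Hz, the library of that group with the least small RNA. In control and 1 Hz libraries it was 52.4 ± 2.13% and 49.4 ± 1.62% (SD, n = 6 each), so the mean at 10 Hz lay farthest from control.

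Myogenic transcription factors went in both directions, with 3 of 10 called higher and 3 lower (30.0% each, beside 5.32% and 5.64% of all genes). Myf5, of undifferentiated and early myoblasts, was at 20.1 to 32.1 CPM at 10 Hz (median 22.7) and 10.7 to 17.5 CPM at 4 Hz (median 13.1), with no overlap (log2 fold change 0.78 ± 0.18, SE, edgeR adjusted p = 0.00253, and 0.72 with libraries 4 to 6, adjusted p = 0.07). Myod1 was at 39.8, 31.7, and 45.6 CPM in libraries 1 to 3 at 10 Hz, 71.4, 75.7, and 107 CPM in libraries 4 to 6, and 83.5 to 148 CPM at 4 Hz. The log2 difference of -0.74 ± 0.22 (SE, edgeR adjusted p = 0.0191) was -0.28 with libraries 4 to 6 (adjusted p = 0.528), and it lost its call when library 1, 2, or 3 at 10 Hz or library 6 at 4 Hz was left out (adjusted p = 0.0538, 0.0546, 0.0507, and 0.0568). Myog, the factor of terminal differentiation, was at 275 to 645 CPM against 464 to 622 CPM (log2 fold change -0.23 ± 0.15, SE, edgeR adjusted p = 0.267). Six4 rose (log2 fold change 0.64, edgeR adjusted p = 0.0142), and Mef2c fell by 0.51 (edgeR adjusted p = 0.0309), and neither was called with libraries 4 to 6 (0.51 and -0.18, adjusted p = 0.252 and 0.629). Myf6 and the satellite cell factor Pax7 were near the filter, with medians of 6.53 and 2.23 CPM at 10 Hz and 3.45 and 3.81 CPM at 4 Hz, and were called at 0.89 and -0.96 (edgeR adjusted p = 0.0342 and 0.0415). The call of Mef2c was lost without library 3, 4, or 5 at 4 Hz or library 1, 2, 3, or 4 at 10 Hz (edgeR adjusted p = 0.0508 to 0.0863), that of Myf6 without library 1, 4, or 6 at 4 Hz or 1, 3, or 5 at 10 Hz (0.0532 to 0.0916), and that of Pax7 without library 3, 4, or 6 at 4 Hz or 2, 3, or 4 at 10 Hz (0.0545 to 0.11).

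**Figure D4:**
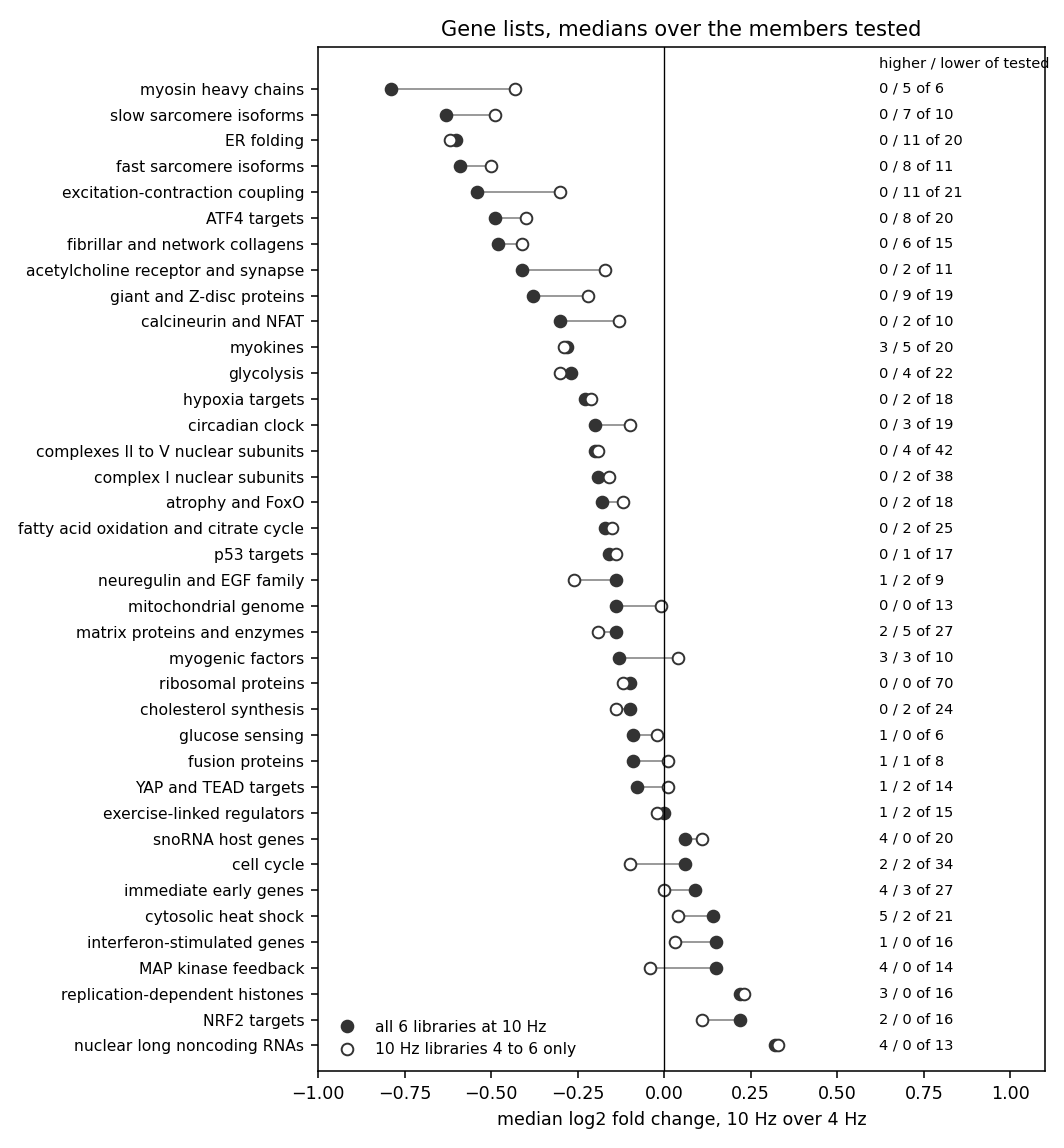
Median log2 fold change (10 Hz over 4 Hz) over the tested members of each gene list, with all 6 libraries at 10 Hz (filled) and with libraries 4 to 6 alone (open), and the number of members called higher and lower of those tested. Endoplasmic reticulum folding genes keep a median near -0.6 in both, whereas the myosin heavy chain median moves from -0.79 to -0.43.

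Immediate early genes, which respond to calcium and kinase signals within minutes, had calls in both directions. Of 27, 4 were called higher (14.8%) and 3 lower (11.1%), beside 5.32% and 5.64% of all genes. The median log2 fold change was 0.09. Arc, first known from active neurons, was at 34.3 to 70.3 CPM at 10 Hz (median 45.3) and 79.6 to 152 CPM at 4 Hz (median 109), with no overlap. It fell by 1.20 ± 0.18 (SE, edgeR adjusted p = 9.72e-05), and by 0.98 with libraries 4 to 6 alone (adjusted p = 0.0211). Junb and Nr4a3 fell without overlap too, by 0.77 ± 0.15 and 0.81 ± 0.15 (SE, edgeR adjusted p = 0.000985 and 0.000677), and were at -0.71 and -0.52 with libraries 4 to 6 (adjusted p = 0.0599 and 0.0943).

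Fos was at 17.5, 21.7, and 24.4 CPM in libraries 1 to 3 at 10 Hz but at 7.37, 7.18, and 6.96 CPM in libraries 4 to 6, against 4.74 to 7.86 CPM at 4 Hz, so that libraries 4 to 6 lay inside the range at 4 Hz. For Fos the log2 difference of 1.25 ± 0.27 (SE, edgeR adjusted p = 0.00183) was 0.25 without libraries 1 to 3 (adjusted p = 0.577). Nr4a2 and Klf2 were called higher at 1.19 and 1.04 (edgeR adjusted p = 0.0117 and 0.00329), and at 0.89 and 0.54 with libraries 4 to 6 (adjusted p = 0.256 and 0.311). Egr1 and Nr4a1 had log2 fold changes of 0.09 and 0.14 (adjusted p = 0.653 and 0.346).

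Feedback inhibitors of MAP kinases repeated the split among the libraries at 10 Hz. Of 14, 4 were called higher (28.6%, beside 5.32% of all genes) and 0 lower. Dusp6, an ERK phosphatase, was at 43.6, 46.3, and 62.8 CPM in libraries 1 to 3 and at 24, 25.6, and 25.6 CPM in libraries 4 to 6, against 22.7 to 31.7 CPM at 4 Hz. It had a log2 difference of 0.60 ± 0.17 with all libraries (SE, edgeR adjusted p = 0.0149), 0.39 without library 3 (adjusted p = 0.0712), and -0.01 with libraries 4 to 6 (adjusted p = 0.973). Dusp1 and Spry4 were at 0.57 and 0.86 (edgeR adjusted p = 0.00226 and 0.0169), and at 0.26 and 0.23 with libraries 4 to 6 (adjusted p = 0.278 and 0.716). The call of Spry4 was also lost without library 2 (adjusted p = 0.058). Among YAP and TEAD targets 7.14% were called higher and 14.3% lower, beside 5.32% and 5.64% of all genes. Of 14 YAP and TEAD targets, Ccn1 was higher, at 105 to 237 CPM against 71.4 to 133 CPM (log2 fold change 0.93 ± 0.18, SE, edgeR adjusted p = 0.000677, and 0.49 with libraries 4 to 6, adjusted p = 0.128), and 2 genes, F3 and Crim1, were lower (-0.80 and -0.63, and -0.52 and -0.65 with libraries 4 to 6, adjusted p = 0.275 and 0.0599).

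Nfatc1, the NFAT factor that calcineurin activates in slow fibers, was at 14.8, 14.8, and 15.5 CPM in libraries 1 to 3 at 10 Hz and 23.5, 27.1, and 28.2 CPM in libraries 4 to 6, against 28.5 to 71.6 CPM at 4 Hz (median 47.2). All 6 libraries at 10 Hz were below those at 4 Hz (log2 fold change -1.25 ± 0.22, SE, edgeR adjusted p = 0.000343), and libraries 4 to 6 alone gave -0.89 (adjusted p = 0.0613). The catalytic subunit gene Ppp3ca fell by 0.62 ± 0.14 (SE, edgeR adjusted p = 0.00298, and -0.44 with libraries 4 to 6, adjusted p = 0.162). The other 8 of 10 calcineurin and NFAT genes were not called, so 20.0% of the list was lower, beside 5.64% of all genes. With libraries 4 to 6 alone the list had 0 calls. Among 15 regulators linked to exercise 1 was called higher (6.67%) and 2 lower (13.3%), beside 5.32% and 5.64% of all genes. The lowest log2 fold change of the list was -1.31, in a gene not named here. Sirt1 was the higher gene (0.67, edgeR adjusted p = 0.00925). Of the 2 lower genes, Ppargc1a, a coactivator of mitochondrial biogenesis, was at 2.87 to 6.63 CPM against 6.22 to 9.88 CPM (log2 fold change -0.63 ± 0.20, SE, edgeR adjusted p = 0.021). With libraries 4 to 6 Sirt1 and Ppargc1a were at 0.42 and -0.50 (adjusted p = 0.301 and 0.243). The call of Ppargc1a was lost without library 1 or 2 at 10 Hz or library 1 at 4 Hz (adjusted p = 0.0579, 0.058, and 0.0547). Of 20 myokine genes 3 were called higher and 5 lower, both larger shares than the 5.32% and 5.64% of all genes. The myokine list had 0 genes called higher and 1 lower with libraries 4 to 6 alone. Cxcl12 and Vegfa fell without overlap, by 0.83 and 0.72 (edgeR adjusted p = 0.000615 and 0.00038), and libraries 4 to 6 gave -0.76 and -0.59 (adjusted p = 0.0408 and 0.0557). Cxcl1, a neutrophil chemokine, was at 41.1 CPM in library 3 at 10 Hz and at 1.23 to 2.58 CPM in the other 5, against 1.08 to 3.19 CPM at 4 Hz, so its call (log2 fold change 2.36, edgeR adjusted p = 0.0156) rested on 1 library and was 0.15 without it (adjusted p = 0.833).

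Cytosolic heat shock genes, which respond to misfolded protein outside the endoplasmic reticulum, had 5 of 21 members called higher and 2 lower. These are 23.8% and 9.52%, beside 5.32% and 5.64% of all genes. Hspa1a (inducible HSP70) was at 58.0, 106, and 210 CPM in libraries 1 to 3 at 10 Hz and at 22.5, 9.94, and 8.02 CPM in libraries 4 to 6, against 6.97 to 20.7 CPM at 4 Hz. Its log2 difference of 2.47 ± 0.51 (SE, edgeR adjusted p = 0.00139) was 0.11 with libraries 4 to 6 alone (adjusted p = 0.888). Its near-identical copy Hspa1b, between which reads could be split, was at 314, 507, and 492 CPM in libraries 1 to 3 and 149, 101, and 80.7 CPM in libraries 4 to 6, against 63.1 to 112 CPM at 4 Hz (log2 fold change 1.60 ± 0.32, SE, edgeR adjusted p = 0.00106, and 0.28 with libraries 4 to 6, adjusted p = 0.496).

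Hsph1, a cofactor of HSP70, was higher in all 6 libraries at 10 Hz (174 to 496 CPM) than in any at 4 Hz (122 to 166 CPM), with a log2 difference of 0.96 ± 0.19 (SE, edgeR adjusted p = 0.00106) and of 0.30 with libraries 4 to 6 (adjusted p = 0.18). The 2 lower members were small heat shock proteins of muscle, Hspb7 and Hspb6 (log2 fold change -0.86 and -0.58, and -0.51 and -0.59 with libraries 4 to 6, adjusted p = 0.0591 and 0.058). The heat shock element, spelled GAANNTTCNNGAA or TTCNNGAANNTTC, stood in 2 of 21 promoters of the list and in 0.512% of all promoters. The 2 were those of Hspd1 and Hspe1, mitochondrial chaperonin genes rather than cytosolic ones, and neither gene was called. Their matches are reverse complements of each other, so the same sites may be counted in both promoters. In contrast to heat shock genes, the NRF2 targets Gclm and Gsr, of glutathione synthesis and recycling, were called higher both with all libraries (0.78 ± 0.13 and 0.66 ± 0.11, SE, edgeR adjusted p = 0.000235 for each) and with libraries 4 to 6 (0.62 and 0.55, adjusted p = 0.0322 and 0.0325). Gclm was at 103 to 161 CPM at 10 Hz (median 120) and 57.2 to 100 CPM at 4 Hz (median 69.2), and Gsr at 53.7 to 73.4 CPM (median 61.9) against 32.7 to 49.8 CPM (median 38.9), with no overlap for either gene. Gclm and Gsr made up 12.5% of the 16 NRF2 targets, beside 5.32% of all genes called higher. The other 14 of 16 NRF2 targets were not called, and Hmox1 and Nqo1 had log2 fold changes of 0.03 and 0.32.

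Genes of energy metabolism were called lower at shares from 0% to 18.2%, beside 5.64% of all genes. The 13 protein genes of the mitochondrial genome had 0 calls and a median of -0.14. Of 38 nuclear subunits of complex I 2 were lower, of 42 of complexes II to V 4, of 22 glycolytic genes 4, and of 25 of fatty acid oxidation and the citrate cycle 2, with 0 higher in each, which are 5.26%, 9.52%, 18.2%, and 8.0% of their members, and medians of -0.19, -0.20, -0.27, and -0.17. The called subunits of complex I, Ndufs4 and Ndufb7, were at -0.58 and -0.54, and neither was called with libraries 4 to 6 (adjusted p = 0.0796 and 0.127). Cox8b and Cox6a2 are muscle isoforms of cytochrome oxidase subunits. Cox8b was at 30.0 to 42.9 CPM (median 34.3) against 46.9 to 88.9 CPM (median 61.8), and Cox6a2 at 39.4 to 64.9 CPM (median 53.4) against 66.4 to 128 CPM (median 88.1), with no overlap for either. They fell by 0.88 ± 0.15 and 0.79 ± 0.16 (SE, edgeR adjusted p = 0.000254 and 0.00106), and by 0.78 and 0.90 with libraries 4 to 6 (adjusted p = 0.037 and 0.0211). Suclg2, of succinyl-CoA synthetase, fell by 0.82 ± 0.15 (SE, edgeR adjusted p = 0.000595), and by 0.88 with libraries 4 to 6 (adjusted p = 0.024). The muscle enzymes Pgam2 and Pygm, of glycolysis and glycogen breakdown, were at -0.61 and -0.54 (edgeR adjusted p = 0.00539 and 0.00182), and at -0.33 and -0.41 with libraries 4 to 6 (adjusted p = 0.275 and 0.109).

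Txnip, which restrains glucose uptake, was at 235, 241, and 226 CPM in libraries 1 to 3 at 10 Hz, 148, 127, and 149 CPM in libraries 4 to 6, and 93.5 to 144 CPM at 4 Hz. The difference was 0.80 ± 0.17 (SE, edgeR adjusted p = 0.00187), and 0.39 with libraries 4 to 6 (adjusted p = 0.249). Of 24 genes of cholesterol synthesis 2 were lower (8.33%) and 0 higher, with a median of -0.10. The 70 ribosomal protein genes had 0 calls and a median of -0.10. Of 34 cell cycle genes 2 were higher and 2 lower, of 16 interferon-stimulated genes 1 was higher, of 18 hypoxia targets 2 were lower, of 18 atrophy and FoxO genes 2 were lower, and of 19 clock genes 3 were lower, the output factor Dbp and Per1 and Per2 (-0.64, -0.52, and -0.63). The shares called were 5.88% each way for cell cycle, 6.25% for interferon-stimulated, and 11.1% for hypoxia genes. They were 11.1% for atrophy and FoxO genes and 15.8% for clock genes, beside 5.32% of all genes higher and 5.64% lower. None of the 3 clock genes was called with libraries 4 to 6. Of 17 p53 targets only Fas, a death receptor gene, was called (5.88%). It was at 6.86 to 18 CPM against 20.6 to 29.1 CPM (log2 fold change -1.21 ± 0.17, SE, edgeR adjusted p = 9.4e-05, and -0.82 with libraries 4 to 6, adjusted p = 0.0185).

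Genes called higher were richer in noncoding RNA than genes called lower. Of the 709 higher genes 31.2% were not protein-coding, with 173 long noncoding RNAs (24.4%), beside 5.19% and 29 (3.86%) of the 751 lower genes and 10.0% and 698 (5.24%) of all genes tested. Snhg7, a host gene of small nucleolar RNAs, was at 19.5 to 70.3 CPM at 10 Hz (median 43.5) and 7.01 to 13.4 CPM at 4 Hz (median 10.8), a log2 difference of 2.07 ± 0.24 (SE, edgeR adjusted p = 1.1e-05). Its 3 lowest values at 10 Hz were in libraries 4 to 6, which alone gave 1.32 (adjusted p = 0.00355). Of 20 such host genes 4 were called higher, and Gas5 and Snhg1 were at -0.12 and 0.23 (adjusted p = 0.332 and 0.226). Of 13 nuclear long noncoding RNAs 4 were higher, among them Neat1, the scaffold of paraspeckles, at 182 to 311 CPM against 108 to 164 CPM (log2 fold change 0.92 ± 0.18, SE, edgeR adjusted p = 0.000941, and 0.77 with libraries 4 to 6, adjusted p = 0.0561). Malat1, of nuclear speckles, was at 1230 to 3520 CPM against 646 to 1410 CPM (log2 fold change 0.94 ± 0.24, SE, edgeR adjusted p = 0.0057, and 0.58 with libraries 4 to 6, adjusted p = 0.22). Rn7sk, the 7SK RNA that is itself part of the small RNA share, was at 2.46 ± 0.41 (SE, edgeR adjusted p = 0.00024), and at 1.31 with libraries 4 to 6 (adjusted p = 0.0622). Replication-dependent histone genes, whose messages carry no poly(A) tail in dividing cells, had 3 of 16 members higher, with H2bc21 at 5.31 to 11.2 CPM against 2.62 to 4.92 CPM (log2 fold change 0.98, edgeR adjusted p = 0.00309, and 1.06 with libraries 4 to 6, adjusted p = 0.0514). The shares called higher of host genes, nuclear long noncoding RNAs, and histone genes were 20.0%, 30.8%, and 18.8%, beside 5.32% of all genes. The part of poly(A) selection or ribodepletion in these values was not tested.

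The largest log2 fold change among the leading higher genes was that of a neurofilament gene. Nefl (neurofilament light chain) was at 39.5, 77.5, and 87.5 CPM in libraries 1 to 3 at 10 Hz, 17.6, 17.9, and 24.8 CPM in libraries 4 to 6, and 5.15 to 11.8 CPM at 4 Hz, so all 6 were above the range at 4 Hz. The log2 fold change was 2.53 ± 0.39 (SE, edgeR adjusted p = 0.000122), and 1.40 with libraries 4 to 6 (adjusted p = 0.0369). Nefm, the medium chain, followed at 1.87 ± 0.35 (SE, edgeR adjusted p = 0.000659), and at 0.90 with libraries 4 to 6 (adjusted p = 0.143). Stmn4, a microtubule regulator, was higher in each library at 10 Hz than in any at 4 Hz, at 20.6 to 28 CPM (median 25.2) against 8.25 to 16.1 CPM (median 11.8, log2 fold change 1.05 ± 0.20, SE, edgeR adjusted p = 0.000907, and 0.89 with libraries 4 to 6, adjusted p = 0.0675). In control libraries Nefl, Nefm, and Stmn4 averaged 60.5, 47.9, and 38.0 CPM, against 44.1, 44.0, and 24.8 CPM at 10 Hz (edgeR adjusted p = 0.501, 0.908, and 0.0635).

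Of the other leading genes that were higher, Prl2c3, a proliferin gene, was at 127 to 534 CPM (median 173) against 56.7 to 105 CPM (median 80.5), a log2 difference of 1.56 ± 0.27 (SE, edgeR adjusted p = 0.000368), and of 0.92 with libraries 4 to 6 (adjusted p = 0.0408). Its near-identical copy Prl2c2 was at 0.32 (adjusted p = 0.277), and reads may be split between them. Hoxa7, a homeobox factor of axial position, was at 12.9 to 25.9 CPM against 7.31 to 10.2 CPM (log2 fold change 1.24 ± 0.18, SE, edgeR adjusted p = 8.7e-05, and 0.84 with libraries 4 to 6, adjusted p = 0.0258). Nos2, the inducible nitric oxide synthase, was at 36.3 to 56.1 CPM in 5 libraries at 10 Hz and 155 CPM in library 3, against 18.3 to 35.1 CPM at 4 Hz (log2 fold change 1.26 ± 0.25, SE, edgeR adjusted p = 0.000943, and 0.77 with libraries 4 to 6, adjusted p = 0.0501). Fam167a and Tlcd2 completed the 10, at 1.32 and 1.27, and at 1.04 and 0.67 with libraries 4 to 6 (adjusted p = 0.0195 and 0.0684). Among the leading lower genes, Car6, a secreted carbonic anhydrase, was at 7.84 to 17.9 CPM (median 15.7) against 22.1 to 39.8 CPM (median 36.2), with no overlap. It fell by 1.29 ± 0.21 (SE, edgeR adjusted p = 0.000256), and by 1.02 with libraries 4 to 6 (adjusted p = 0.0366).

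Genes that span long stretches of the genome were lower at 10 Hz, a property examined after the values were seen and given here as a description. Of 519 tested protein-coding genes with a span over 200 kb from start to end of the gene, 157 (30.3%) were called lower and 2 (0.385%) higher, and their median log2 fold change was -0.38. Genes under 10 kb, from 10 to 50 kb, and from 50 to 200 kb had 4.05%, 3.84%, and 7.56% called lower, 6.77%, 4.22%, and 2.15% called higher, and medians of 0.02, 0.05, and -0.07. The median span was 57.0 kb for the 712 protein-coding genes called lower, 14.8 kb for the 488 called higher, and 25.8 kb for the 11986 tested. With libraries 4 to 6 alone the median of the long genes was -0.29, and 29 of 110 protein-coding genes called lower (26.4%) spanned over 200 kb.

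Summed over the 519 genes, the level was 14000 to 20200 CPM at 10 Hz (median 17400) and 18700 to 23300 CPM at 4 Hz (median 21000). It was 16200 to 20400 CPM in control and 20700 to 24200 CPM at 1 Hz. Nrg1, which spans 1070 kb at chr8:32303906-33374825 on the minus strand of GRCm39, led the long genes that met the naming limits. Others were Pcca, of propionyl-CoA carboxylase (357 kb, log2 fold change -1.15 ± 0.17, SE, edgeR adjusted p = 0.000102), Slc9a9, a sodium-proton exchanger of endosomes (561 kb, -1.03 ± 0.16, SE, edgeR adjusted p = 0.000182), and App, the amyloid precursor (225 kb). App was at 153 to 213 CPM (median 170) against 274 to 444 CPM (median 341), with no overlap (log2 fold change -0.98 ± 0.13, SE, edgeR adjusted p = 2.92e-05, and -0.91 with libraries 4 to 6, adjusted p = 0.00929). With the small RNA covariate the median of the long genes was -0.21.

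**Figure D5:**
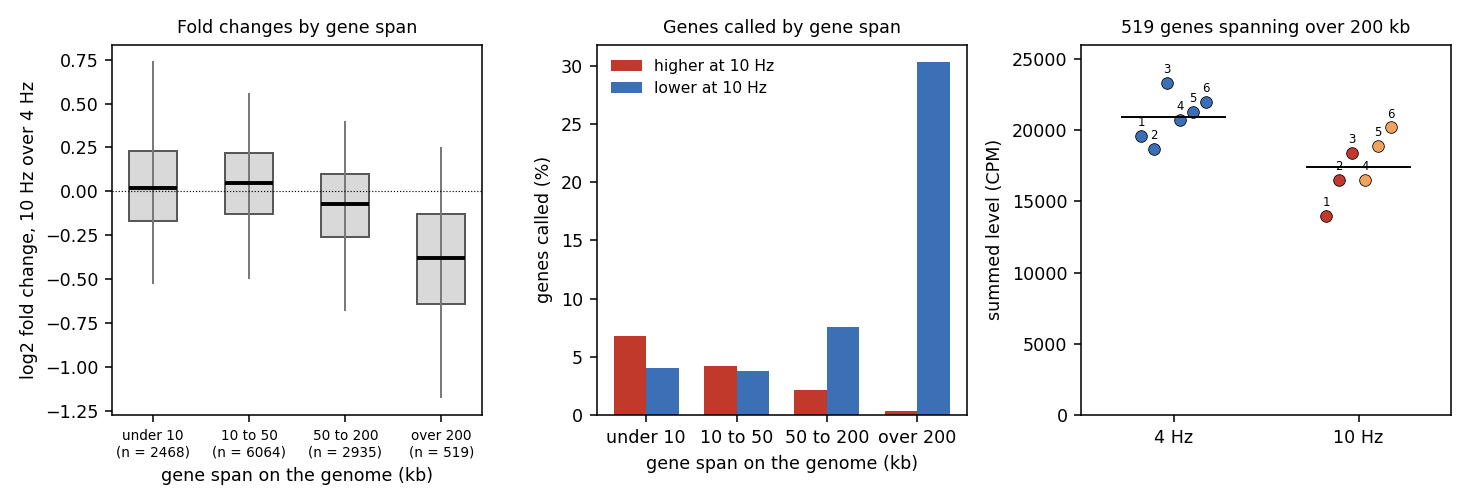
Left, log2 fold changes (10 Hz over 4 Hz) of tested protein-coding genes by gene span on the genome, with the median (line), the middle 50% (box), and the 5% to 95% range (whiskers). Middle, percent of the same genes called higher (red) and lower (blue). Right, summed level of the 519 genes over 200 kb in each library, in CPM, coloured as in the plot of library composition. The longest genes have a median of -0.38, and 30.3% of them are called lower.

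Beside control, the genes that separated the 2 pulse rates were at 4 Hz mostly away from it and at 10 Hz mostly near it. The 709 higher genes had medians of -0.92 when 4 Hz was set against control and -0.06 when 10 Hz was, on the log2 scale, with 582 (82.1%) and 20 (2.82%) of them called, beside 20.1% and 1.86% of all genes tested. The 751 lower genes had medians of 0.86 and 0.09, with 622 (82.8%) and 42 (5.59%) called. All 3 comparisons share libraries, so these values stand side by side and are no independent evidence. Hspa5, for example, averaged 1620 CPM in control and 3720 CPM at 1 Hz, and Nefl 60.5 CPM in control and 14.9 CPM at 1 Hz. The mean share of small RNA was 135 CPM in control and 128 at 10 Hz, against 30.7 at 1 Hz and 28.6 at 4 Hz. The adult myosin share was ordered otherwise, with 10 Hz farthest from control. Its means were 52.4% in control, 49.4% at 1 Hz, 47.8% at 4 Hz, and 44.5% at 10 Hz.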

How the data were processed

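RNA of ChR2::tdTomato C2C12 muscle was measured by RNA-seq in 24 libraries, 6 per condition. Per the labels and the methods of the study, the authors aligned 50-base paired reads from poly(A)-selected, directional libraries to GRCm39 with STAR and quantified them with Salmon through nf-core/rnaseq; low-input samples were ribodepleted instead and are not named. For the Ensembl release and the strand setting of the counting, nothing is stated in the sources at hand. As for units, the deposited estimated counts per gene (Salmon, summed over transcripts by the authors, not normalised) were rounded to whole numbers. The deposited TPM values, which the authors scaled by length and library, were used for myosin shares and for limma.

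Genes were kept by filterByExpr (13318 of 56941, holding 99.8% of counts) and fitted with edgeR 4.0.16 in R 4.3.3 (quasi-likelihood test, TMM scaling, condition as the factor, all 24 libraries sharing 1 estimate of the spread, common dispersion 0.0233), with Benjamini-Hochberg adjustment over all genes tested. CPM values use TMM-scaled library sizes, except marker sums and small RNA shares, which use raw library totals. Every adjusted p of a gene is from the edgeR test, in the fit of all 24 libraries unless another fit is named beside it. Those other fits repeat the filter, the estimate of the spread, and the adjustment. Shares and totals were compared by 2-sided exact permutation. Fits "with libraries 4 to 6" leave out libraries 1 to 3 at 10 Hz and keep all else. Library totals were 5.41 to 12.1 M counts at 10 Hz and 7.55 to 11.5 M at 4 Hz. In simulated counts of this comparison (13318 genes, 200 changed by a log2 fold change of 1) edgeR recovered 96.5% with 2.03% of calls false, DESeq2 97.5% with 2.5%, and limma 96% with 2.54%. The simulated libraries had no difference in small RNA share and no split among those at 10 Hz. The simulated rates therefore do not carry over to calls that depend on these. In the simulation limma was run on log2 CPM, not on TPM. No pair of libraries of the same condition agreed within counting noise (lowest chi-square per gene 6.29 over 30 pairs).

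The gene lists and the comparison were chosen with earlier results of these data known. Named genes were the 10 called genes with the largest change each way among those with a mean of at least 10 CPM and no overlap between the groups, leaving out predicted genes and pseudogenes. Up to 3 called members per list each way with a mean of at least 5 CPM, the 6 myosin heavy chains, and Myod1, Myog, Myf5, Myf6, and Pax7 were named too, as was a near-identical copy of a named gene. Other list members and the genes of the long-span group were picked after their values were seen. Some genes that met the rule are not reported here. Promoters and gene spans were read from the GRCm39 annotation.

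Alternatives were other scalings (size factors, library totals), filters, tools (DESeq2 1.42.0, with apeglm 1.24.0, and limma 3.58.1 on log2(TPM + 1) or log2(TPM + 0.1)), only the 12 libraries, the replicate number as a block, the adjusted p alone, protein-coding genes alone, the small RNA share as a covariate, and leaving out libraries. The covariate within 12 libraries, the fit without the 3 libraries at 10 Hz with the least small RNA, and the myosin share without those with the most were added after seeing the data.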

Additional observations from a re-analysis of the deposited data

Results flagged for a closer look

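For each named gene and each library share, the highest and the lowest of the 6 libraries of a frequency were compared with the nearest other library by Dixon's ratio. This flagged 14 of 242 groups, and chance flags about 1 in 20. Library 3 at 10 Hz held the highest value of Cxcl1 (41.1 CPM, next 2.58), Prl2c3 (534 CPM, next 275), Nos2 (155 CPM, next 56.1), and Fam167a (30.1 CPM, next 14.7). Library 6 at 10 Hz was the highest for Myh3 (1040 CPM, next 664) and for Nrg1 (8.96 CPM, next 5.89), and its Nrg1 value was still below every library at 4 Hz. Myf5 was highest in library 2 at 10 Hz (32.1 CPM, next 23.9) and the histone gene H2bc21 in library 5 (11.2 CPM, next 7.4).

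At 4 Hz, library 2 was the highest for Ccn1 (133 CPM, next 93.8), Loxl2 (33.7 CPM, next 27), and Cxcl1 (3.19 CPM, next 1.83), and library 6 for Myod1 (148 CPM, next 102) and Myh3 (1090 CPM, next 875). The share of small RNA at 4 Hz was highest in library 3, at 51.1 CPM of the raw total against 30.3 in the next.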

How the results depend on the processing

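Against 709 genes higher and 751 lower, the counts stayed within 1.5 times with DESeq2 size factors, no filter, DESeq2 with and without shrinkage, 12 libraries, and protein-coding genes alone. The count of higher genes was 386 with a mean of at least 5 CPM, 1458 with the adjusted p alone, 49 without the 3 libraries at 10 Hz with most small RNA, and 1148 without those with least. The count of lower genes was 1579, 114, and 1140 under the last 3 of these settings, and 389, 416, and 301 with limma on log2(TPM + 1), log2(TPM + 0.1), and log2(TPM + 1) without a filter. With the small RNA covariate, edgeR gave 0 and 0 over 24 libraries (940 genes at an unadjusted p under 0.05) and 0 and 0 over 12 (1040), and limma 0 and 0 (909). The cause was not tested. Leaving out each library in turn gave 568 to 881 genes higher and 615 to 911 lower, differences of 70.7 to 118 CPM for small RNA, 0.578 to 0.955 points for ribosomal RNA, 0.0826 to 0.721 points for mitochondrial genes, -1.71 to -0.372 M counts for totals, and -3.93 to -2.66 points for the adult myosin share. The 116 named genes were also compared by the adjusted p alone, without the fold limit. With libraries 4 to 6 alone, 78 no longer had an adjusted p under 0.05. Another 37 kept their side of that limit, genes not called with all libraries included. Sign changes were counted only where either fit gave an adjusted p under 0.05, and by this rule Dusp6 changed sign (-0.01). With the covariate over 24 libraries, 111 lost an adjusted p under 0.05 with their sign kept, and Spry4 (-0.08) and Kcnq1ot1 (-0.03) changed sign. Outside the rule, Myog (-0.23 in the main fit) was at 0.02 with libraries 4 to 6 and 0.14 with the covariate. Over 12 libraries the covariate gave Myod1 0.11, Mef2c 0.01, Spry4 -0.03, Dusp6 -0.00, Ppargc1a 0.06, Cd36 0.10, Hspa1a -0.06, Hspa1b -0.22, Mcm5 -0.38, and Myh1 0.09, each opposite to its value without it. The adult myosin share was -3.4 points without the 3 libraries with most small RNA (exact permutation p = 0.0952).

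Same-numbered libraries shared little beyond the number. Their deviations from the group means correlated at -0.0455 to 0.269, and only numbers 1 and 5 matched their own number best. With the replicate block edgeR called 649 and 714 genes over 12 libraries and 699 and 769 over 24, and the paired difference in the adult myosin share was -3.37 points (exact sign-flip permutation p = 0.0625). Depth limits genes near the filter, such as Pax7 and Cxcl1, more than the others.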
